A study of Mus musculus with 2 samples.

Results

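Expressed antisense RNA genes were examined in the nuclear RNA of mouse macrophages. A gene was included when the annotation gives every one of its transcripts as antisense, when it lies on an autosome, when its effective length (the number of positions from which a fragment can come) was 200 bases or more, and when it reached 1 TPM in both libraries. TPM is a length-corrected share of all transcripts in a library. Symbols that start with Snhg or Mir were to be left out, and none was met at this level. Of 2559 antisense genes that met the annotation and length criteria, 254 reached the level, which is 9.93%, among 55536 gene rows in all. The genes were thus chosen by their TPM in these libraries, so their own TPM values are given as a description and carry no test.

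Both libraries are of the same group. Macrophages grown from the bone marrow of C57BL/6J mice received 100 ng/ml Lipid A (the endotoxin component sensed through TLR4) for 12 hours, stood without it for 12 hours and received 100 ng/ml again for 60 min. Ribosomal RNA was removed, and total RNA of the nucleus (the source field) or nucleoplasm (the description field) was sequenced from 1 µg of RNA in replicate 1 and 500 ng in replicate 2. The age and sex of the animals were not collected, and both libraries carry the same donor identifier, so the spread between them may be technical. Unstimulated cells were not analysed here, so levels are those of the stimulated state and no change on stimulation can be read from them.

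Antisense RNAs are made from the strand opposite another gene. Some start next to that gene's own start, where a promoter fires in both directions, while others start inside the gene or run into it from beyond its end. Many stay in the nucleus and are short-lived, because the RNA exosome and early termination remove them, and a few act on their neighbours in cis: Airn silences Igf2r on the paternal chromosome, and Kcnq1ot1 does the same to genes around Kcnq1.

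Expected counts assigned to annotated genes came to 23630328 in replicate 1 and 15687634 in replicate 2. The antisense genes took 0.328% and 0.346% of them, with a median of 105 and 74.7 expected counts per gene, and 100 of the 254 had fewer than 50 counts in at least 1 library. Macrophage markers were present and other lineages were near 0. All 9 macrophage markers reached 10 TPM in both libraries, with summed levels of 4408 and 2644 TPM, whereas 0 of 27 markers of neutrophils, lymphoid, erythroid, mast, dendritic, stromal and endothelial cells reached 1 TPM in both. The summed level of each of these other lists was at most 2.07 TPM, and 5 of 6 lymphoid markers and 4 of 6 neutrophil markers lay below 0.1 TPM in both libraries. TPM was lower in replicate 2 for most genes: the median log2 ratio of replicate 2 to replicate 1 was -0.47 over nuclear protein-coding genes and -0.32 over the antisense genes.

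Sequences of promoters are shown first, for protein-coding partners that start close to a member. The windows are those of the partner and need not contain the start of the antisense gene. The 4 windows below are the RefSeq promoters (GRCm38.p6, from 250 bases before the start to 50 after it) of Jun, Morc2a, Sp110 and Lpcat2, 5′ to 3′ on the strand of the protein-coding gene. Capitals mark matches to the motif of the GC box, searched as GGGCGG. They also mark the CCAAT box, whose name spells the motif. The TATA box was searched as TATAAA. Each was searched on both strands, and overlapping matches run together. The Jun window, chr4:95052173-95052472 on the minus strand, lies inside Junos, whose start is 688 bases from that of Jun. The Morc2a window, chr11:3649187-3649486 on the plus strand, lies inside Tug1. The Sp110 window, chr1:85598761-85599060 on the minus strand, ends before the start of Gm16094, and the Lpcat2 window, chr8:92855083-92855382 on the plus strand, lies inside Gm45472.
Jun: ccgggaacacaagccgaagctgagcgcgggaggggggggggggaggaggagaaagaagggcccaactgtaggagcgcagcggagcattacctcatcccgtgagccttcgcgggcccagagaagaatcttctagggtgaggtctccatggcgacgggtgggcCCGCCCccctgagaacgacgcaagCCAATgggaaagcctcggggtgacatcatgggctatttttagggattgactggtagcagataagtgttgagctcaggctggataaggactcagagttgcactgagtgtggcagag
Morc2a: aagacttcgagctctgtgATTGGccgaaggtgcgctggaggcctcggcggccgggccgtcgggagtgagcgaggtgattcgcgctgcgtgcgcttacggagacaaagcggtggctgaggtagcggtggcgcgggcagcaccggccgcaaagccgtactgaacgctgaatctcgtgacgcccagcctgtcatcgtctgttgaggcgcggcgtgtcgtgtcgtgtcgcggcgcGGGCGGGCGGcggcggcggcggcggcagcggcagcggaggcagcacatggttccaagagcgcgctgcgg
Sp110: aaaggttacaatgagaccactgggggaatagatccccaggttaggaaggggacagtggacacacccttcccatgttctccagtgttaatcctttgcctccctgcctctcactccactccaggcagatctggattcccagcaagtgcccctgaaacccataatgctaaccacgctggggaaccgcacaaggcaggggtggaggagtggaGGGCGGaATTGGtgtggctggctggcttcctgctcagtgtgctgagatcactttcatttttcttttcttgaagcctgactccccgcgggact
Lpcat2: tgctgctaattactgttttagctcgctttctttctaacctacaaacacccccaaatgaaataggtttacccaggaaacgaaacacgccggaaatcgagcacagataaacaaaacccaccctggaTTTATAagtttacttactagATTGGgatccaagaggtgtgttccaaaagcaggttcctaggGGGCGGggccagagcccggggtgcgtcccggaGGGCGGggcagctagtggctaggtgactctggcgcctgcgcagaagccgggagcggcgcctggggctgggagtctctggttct

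A RefSeq promoter was found for 19 of the 25 partners that start within 1 kb of a member. The RefSeq start nearest the GENCODE M21 start of the partner was used. It lay farthest from that start for Rap2b (2869 bases), Cers2 (399 bases) and Morc2a (246 bases), and these windows are counted below. A GC box was present in 16 of the 19 windows (84.2%), against 66.4% of the promoters of 2625 protein-coding genes at 10 TPM or more and 35.7% of all 32851 promoters of the same length. A CCAAT box was present in 13 (68.4%), against 37.1% and 37.4%, and a TATA box in 3 (15.8%), against 7.89% and 13.6%. The median number of CpG dinucleotides was 21, against 22 in the promoters of expressed protein-coding genes and 7 in all promoters. With 19 windows these shares are a description, and they describe the partners' promoters. A RefSeq promoter of their own was found for 91 of the 254 members. Of these, 33.0% had a GC box, 38.5% a CCAAT box and 13.2% a TATA box. Their median number of CpG dinucleotides was 7, as in all promoters. A match says only that the letters occur there.

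The ends of the antisense transcripts are shown next, since the hexamer AATAAA is the usual signal for cleavage and polyadenylation and total RNA does not select for it. The last 60 bases of the longest GENCODE M21 transcript are printed 5′ to 3′ for 4 members whose ends lie outside the exons of any opposite protein-coding gene, with AATAAA in capitals where it falls within the last 50 bases.
4933423P22Rik, chr2:90485025-90485084, plus strand: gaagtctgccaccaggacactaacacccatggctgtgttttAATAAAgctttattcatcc
Tug1, chr11:3639785-3639844, minus strand: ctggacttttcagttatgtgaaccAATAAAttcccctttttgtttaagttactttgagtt
Gt(ROSA)26Sor, chr6:113070398-113070457, minus strand: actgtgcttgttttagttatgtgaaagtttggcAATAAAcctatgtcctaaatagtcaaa
AC119228.1, chr19:29378250-29378309, minus strand: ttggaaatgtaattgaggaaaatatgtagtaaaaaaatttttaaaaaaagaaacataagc
AATAAA occurred in this window in 94 of 254 members (37.0%) and in 797 of 2305 antisense genes below the level (34.6%), so the hexamer was about as common in both. The members' longest transcripts were longer, with a median of 1427 against 951 bases, and had a median GC content of 47.3% against 48.8%.

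Most expressed antisense RNAs were at low levels and a few were abundant. Here and below, paired values are replicate 1 first, then replicate 2. In replicate 1 they ran from 1.02 to 107 TPM with a median of 3.55, and in replicate 2 from 1.01 to 65.7 TPM with a median of 2.76. Protein-coding genes at 1 TPM or more had medians of 9.20 and 6.56 TPM. At least 10 TPM in both libraries was reached by 29 members, and at least 50 TPM by 2. The 10 highest held 29.7% of the members' summed TPM in replicate 1 and 31.0% in replicate 2. The antisense genes that were not included had a median of 0 TPM in both libraries.

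Next to the threshold, the lowest members were Gm16213 (3.43 and 1.01 TPM), A930006L05Rik (1.02 and 1.22 TPM) and Gm12359 (1.02 and 1.06 TPM). The nearest genes outside it were Gm17477 (1.09 and 0.99 TPM), C130040N14Rik (1.61 and 0.99 TPM) and Gm3235 (1.48 and 0.98 TPM). The lower of the 2 values of each gene lay within 0.98 to 1.02 TPM in these 6, which were chosen as the nearest to the threshold.

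The highest member was AC119228.1 (ENSMUSG00000117964.1, chromosome 19, 29373417 to 29384471, minus strand), which lies inside Cd274, the gene of the immune checkpoint ligand PD-L1. It had 107 TPM in the first library and 47.9 TPM in the second, 77.5 ± 41.9 TPM (SD, n = 2), on 10574 and 4483 expected counts. Cd274 itself had 390 and 238 TPM. Both genes of the pair were lower in replicate 2 also in normalised counts, with a log2 ratio of -0.65 for AC119228.1 and -0.29 for Cd274. The second quantifier gave AC119228.1 37.0 and 33.1 TPM, below Gm20234, Gm16094 and Gm37787, so its first rank holds for the first quantifier. Of the exon bases of AC119228.1, 10.8% lie opposite exons of a protein-coding gene.

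Gm37787 (chromosome 1, 171634879 to 171636022) lies inside Slamf7, which encodes a receptor of the SLAM family on immune cells, and had 77.8 and 52.7 TPM. 4933423P22Rik (chromosome 2, 90479236 to 90488425) had 65.1 and 51.2 TPM, and its exons lie opposite introns of Ptprj, a receptor tyrosine phosphatase gene. Gm40578 (chromosome 12, 111450405 to 111500840) had 47.1 and 53.5 TPM and overlaps the end of Tnfaip2, a gene induced by tumour necrosis factor. Gm40578 also overlaps a protein-coding gene on its own strand. The libraries overlap in order here: Gm37787 and 4933423P22Rik were higher in replicate 1 and Gm40578 in replicate 2. By normalised counts, these genes differed by log2 ratios of -0.17, 0.05 and 0.59, replicate 2 over replicate 1.

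Gm16094 (chromosome 1, 85599286 to 85599839) is the single member that starts head to head with a protein-coding gene without touching it. Its start lies 469 bases from that of Sp110, an interferon-induced nuclear body protein gene, and it had 56.9 and 41.7 TPM beside 137 and 74.3 TPM for Sp110. It has an effective length near the minimum, 220 bases in replicate 1 and 209 in replicate 2, so its TPM rests on 330 and 206 counts. Gm10552 and Gm17017, opposite the neighbouring Sp140, had 10.3 and 7.20 TPM, and 9.53 and 5.56 TPM. All 3 antisense genes of this interval were higher in replicate 1 on the TPM scale, as were Sp110 and Sp140. That scale carries the shift between the libraries, and 187 of the 254 members were higher in replicate 1 on it. In normalised counts the log2 ratios were -0.09 for Gm16094, -0.11 for Gm10552 and -0.35 for Gm17017. The second quantifier, not normalised, gave all 3 a higher value in replicate 2.

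Tug1 (chromosome 11, 3639785 to 3649673), a conserved long noncoding RNA that the annotation files as antisense, had 54.0 and 40.7 TPM, 47.4 ± 9.43 TPM (SD, n = 2). Its partner Morc2a, a gene of a chromatin ATPase, had 11.8 and 7.65 TPM, so the antisense gene stood above its partner in both libraries. Gm16712 had 39.1 and 44.7 TPM and overlaps the end of Ebi3, which encodes a subunit shared by interleukin 27 and interleukin 35. Gm20234 had 32.5 and 17.3 TPM and overlaps the end of Slfn2, a schlafen gene. The second quantifier put Tug1 lower (20.6 and 26.5 TPM) and Gm20234 higher (78.8 and 99.2 TPM), so the order of the highest genes depends on the tool.

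The other members among the 15 highest had means of 20.6 to 25.4 TPM. They were Gm10634 (spanning Bcl2a1d, an anti-apoptotic gene with near-identical copies), 4930430E12Rik, Gm15601 (end of Ddhd1, a phospholipase gene), Gm29361 (inside Rbm25, a splicing factor gene), Gm7480 (inside Lrmda) and A530040E14Rik. Gm10634 and A530040E14Rik, which lies inside C130026I21Rik, sit in multi-copy families, and how their reads were divided among copies was not tested. 4930430E12Rik has no protein-coding partner and had 36.6 and 12.7 TPM. Gt(ROSA)26Sor, the RNA of the Rosa26 locus used for transgenes and picked after the values were seen, had 17.9 and 12.2 TPM.

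**Figure D1:**
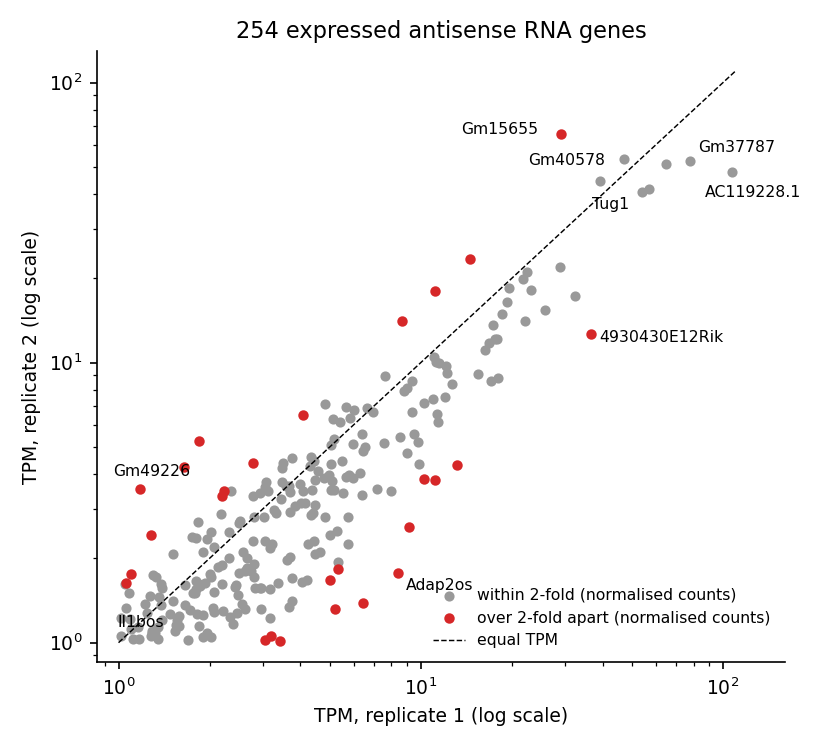
TPM of the 254 expressed antisense RNA genes in replicate 1 (x axis) and replicate 2 (y axis), both on log scales; each point is a gene, red points were over 2-fold apart in normalised counts and the dashed line marks equal TPM. Most points lie below the line, with 187 genes higher in replicate 1 on the TPM scale, and AC119228.1, Gm15655 and 4930430E12Rik stand off it at the high end.

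The replicates agreed within 2-fold for most members. In counts normalised by TMM, a scaling that centres the bulk of genes, 252 members had a mean of 10 or more counts, and 27 of them were over 2-fold apart (10.7%), against 8.67% of 14052 genes tested the same way. The number higher in replicate 2 was 14 (all genes: 4.12%), and the number higher in replicate 1 was 13 (4.55%). The median log2 ratio of the members was 0.09, against -0.02 over all genes, and the quartiles of the members ran from -0.29 to 0.45. On the TPM scale, which carries the shift given above, the median was below 0, so the sign of this median depends on the scaling. The share of members over 2-fold apart was thus near the background.

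The members farthest apart with a mean of 50 or more counts are named here. Gm15655 (chromosome 8, 115705078 to 115707233), whose exons lie wholly opposite exons of Maf, had 29.1 and 65.7 TPM, a log2 ratio of normalised counts of 1.53. Maf, a transcription factor gene of macrophage identity, had 94.4 and 67.9 TPM and a log2 ratio of normalised counts of -0.04. The second quantifier gave 12.6 and 26.5 TPM for Gm15655 and 29.6 and 39.4 TPM for Maf. These values are not normalised, and the members as a whole were higher in replicate 2 on that scale, with a median log2 ratio of 0.51. The higher value of Gm15655 in replicate 2 with both tools is to be read with this shift. Gm27177, Gm15445, Gm29083 (inside Nrp2, a neuropilin gene) and Gm42435 (inside Cdk6, a cell cycle kinase gene) had log2 ratios of 1.07 to 1.16. In each of these 5 the value in replicate 2 was the higher one also before normalisation.

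In the other direction, Adap2os had 8.38 and 1.77 TPM, a log2 ratio of -1.81. It lies inside Adap2, the gene of a GTPase-activating protein, which had 71.0 and 27.2 TPM and a log2 ratio of -0.92. The second quantifier gave Adap2os 8.86 and 8.11 TPM, so the difference in TPM was much smaller with it. Those values are not normalised, and the median log2 ratio of all members on that scale was 0.51. They cannot be set directly against the ratio of normalised counts. 1700019L13Rik, inside the fractalkine receptor gene Cx3cr1, had 5.20 and 1.32 TPM. AC132460.3 (inside Anks1), Gm26674 (start of Sash1) and Trmt61b (end of Spdya) had log2 ratios of -1.39, -1.19 and -1.15. The symbol Trmt61b is that of a tRNA methyltransferase, but the annotation used here gives all transcripts of this row as antisense. These differences compare 2 libraries of 1 group and have no test. In bulk RNA, fewer cells that make an RNA and less of it per cell cannot be told apart.

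Nearly all members overlap a protein-coding gene on the other strand. This held for 244 of 254 (96.1%), against 92.3% of 2305 antisense genes below the level, and the remainder were Gm16094 and 9 genes with no such partner. Of the 254, 155 lie inside the partner (61.0%), 44 overlap its end (17.3%), 37 overlap its start (14.6%) and 8 span it (3.15%). Among the antisense genes below the level, 52.5% lie inside, 14.3% overlap the end, 21.8% overlap the start and 3.69% span the partner. The difference between these shares was not tested. Starts lay within 1 kb of each other for 25 members (9.84%) and for 328 of the genes below the level (14.2%). The median distance between starts, over genes with a partner, was 27583 bases for members and 24922 bases for the others.

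**Figure D2:**
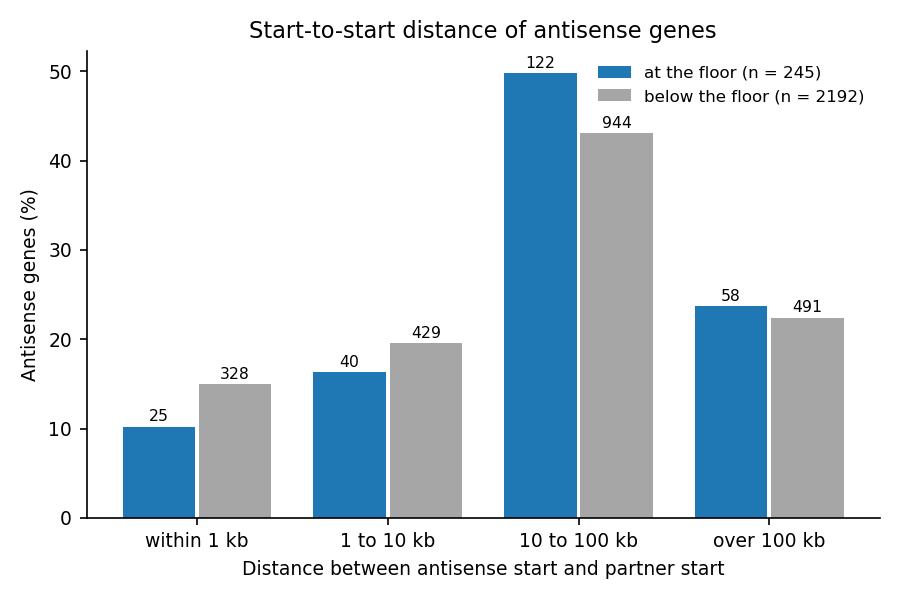
Share of antisense genes (y axis, percent) by the distance between their own start and that of their protein-coding partner (x axis), for 245 expressed genes with a partner (blue) and 2192 below the level (grey), with the number of genes on each bar. The bars are of similar height in both groups, with 25 expressed genes within 1 kb and 122 between 10 and 100 kb.

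The annotated structure of members differed in its medians from that of the other antisense genes. A single exon was annotated for 34 members (13.4%) and for 147 of the others (6.38%), and the median numbers of exons were 2 and 3. The median exon length per gene was 1637 bases for members and 1032 for the others, while the gene spans were 5418 and 6295 bases. The exons of 108 members (42.5%) share no base with exons of an opposite protein-coding gene, a share like that of the others (42.2%). For 84 members (33.1%) all exon bases lie opposite introns, against 26.6% of the others. In 5 of 254 members, against 78 of 2305 others, 90% or more of the exon bases lie opposite exons. The 5 are Gm15655, Gm17139, Gm44709, Gm43118 and A630072M18Rik. The sources used here do not state whether counting used strand, and reads of such exons could come from either gene if it did not. Nuclear RNA also contains unspliced partner transcripts, so the same holds for members opposite introns. In addition, 9 of 254 members, against 47 of 2305 others, overlap a protein-coding gene on their own strand. Gm40578 and Gm15445 are among the 9. Reads there could come from either gene even if counting used strand, and this was not tested.

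The partners of expressed antisense genes were themselves expressed. Of 245 members with a partner, 224 partners (91.4%) reached 1 TPM in both libraries, against 39.9% of all protein-coding genes and 37.8% of the partners of antisense genes below the level. At 10 TPM the number was 164 (66.9%), against 14.9% of all protein-coding genes and 12% of those other partners. At 100 TPM it was 22 (8.98%), against 1.43% and 0.730%. The median partner had 25.4 and 17.2 TPM, while the median partner of an antisense gene below the level had 0.24 and 0.21 TPM. The 245 members have 229 different partners, since 13 partners have more than 1 member.

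Read from the partner's side, the share of antisense genes at 1 TPM or more increased with the partner's mean TPM. With a partner below 1 TPM, 18 of 1340 antisense genes reached the level (1.34%). With a partner of 1 to 10 TPM it was 47 of 591 (7.95%), with 10 to 100 TPM 153 of 457 (33.5%), and with 100 TPM or more 27 of 49 (55.1%). The second quantifier gave 5.07%, 14.0%, 40.0% and 73.5% for the same genes. The order was therefore the same with both tools, which read the same libraries. Replicate 1 alone gave 2.01%, 14.4%, 45.3% and 67.3%, and replicate 2 alone 1.72%, 9.64%, 35.9% and 57.1%.

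The same order was seen in genes inside their partner (1.31%, 8.09%, 39.2% and 57.7%) and in genes that overlap its start (1.34%, 6.15%, 18.2% and 53.8%). Genes with exons wholly opposite introns had 0.957%, 14.4%, 43.7% and 38.5%, and the last share comes from 5 of 13 genes. Antisense genes with at most 10% of their exon bases inside the opposite gene reached the level in 1 of 121, 3 of 56, 5 of 33 and 2 of 4 cases. Antisense genes with 90% or more of their exon bases opposite exons reached it in 0 of 32, 1 of 27, 4 of 23 and 0 of 1. The first quantifier gave both classes, with few genes each, lower shares at partner levels of 10 to 100 TPM. These were 15.2% and 17.4%, against 33.5% of all antisense genes with a partner. With the second quantifier the classes differed, at 24.2% (8 of 33) and 4.35% (1 of 23), against 40.0%. How much of the relation comes from reads of the partner's strand was not tested.

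**Figure D3:**
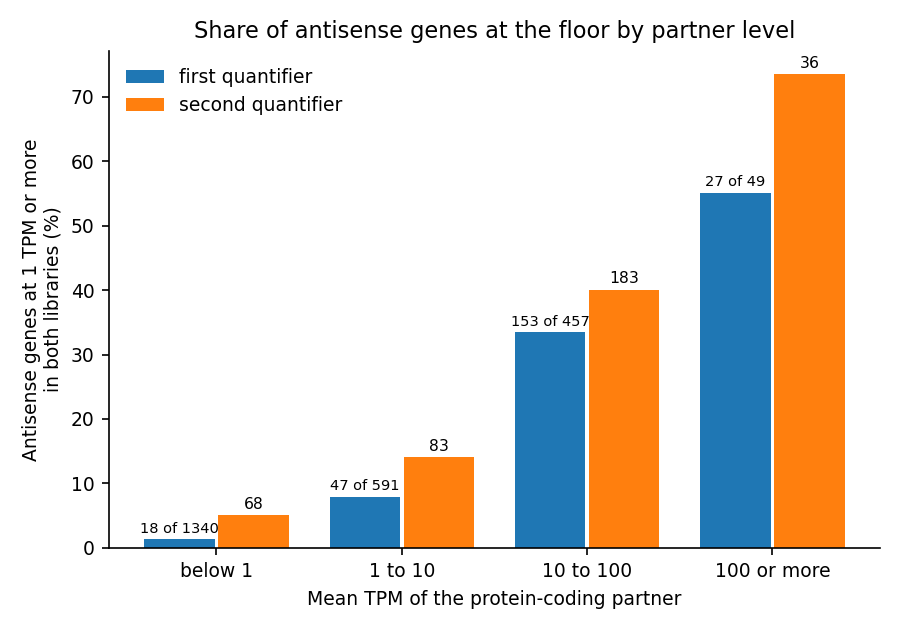
Share of antisense genes at 1 TPM or more in both libraries (y axis, percent) by the mean TPM of the protein-coding partner (x axis), from the first quantifier (blue) and the second (orange); the bars carry the numbers of genes. The blue bars go from 1.34% for partners below 1 TPM to 55.1% for partners of 100 TPM or more.

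Within a pair the antisense gene was usually the lower one. It was below its partner in both libraries in 211 of 245 pairs and above it in both in 32. The median log2 ratio of antisense to partner, on the log2(TPM + 0.1) scale, was -2.57 ± 0.18 (SD, n = 2). Across the 245 pairs the levels correlated weakly, with Pearson's r of 0.33 on that scale and a Spearman coefficient of 0.39. The genes share libraries and, in part, sequence, so this is a description. Of the 32 genes above their partner, 17 had a partner below 1 TPM in both libraries. The log2 ratios of normalised counts between replicates correlated with a Pearson coefficient of 0.34 and a Spearman coefficient of 0.30 over 143 pairs in which both genes had a mean of 50 or more counts, and 83 of these pairs had the same sign.

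With the first quantifier, the genes that stood farthest above their partner had partners near 0. Gm27177 (chromosome 14, 69582164 to 69683286) had 11.2 and 18.1 TPM, while Loxl2, a lysyl oxidase gene of the extracellular matrix, had 0.11 and 0.06 TPM. Gm26740 had 12.0 and 7.52 TPM beside 0.17 and 0.24 TPM for Raet1e, which encodes a ligand of the receptor NKG2D. Gm17056, at the start of Lsmem1, had 7.96 and 3.48 TPM beside 0.08 and 0.04 TPM. In these 3 pairs the partner was at or below 0.24 TPM in both libraries with the first quantifier. The second gave Loxl2 0.913 and 1.55 TPM beside 5.32 and 11.9 TPM for Gm27177, while Raet1e and Lsmem1 stayed at or below 0.272 TPM. Gm27177 and Gm26740 each overlap 2 opposite protein-coding genes, and only the one with the most overlapping bases is named here. Etohd2 (4.79 and 3.88 TPM) and 9530082P21Rik (5.31 and 1.94 TPM) had partners, Gm49354 and Kremen2, that are listed at 0 TPM in both libraries.

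**Figure D4:**
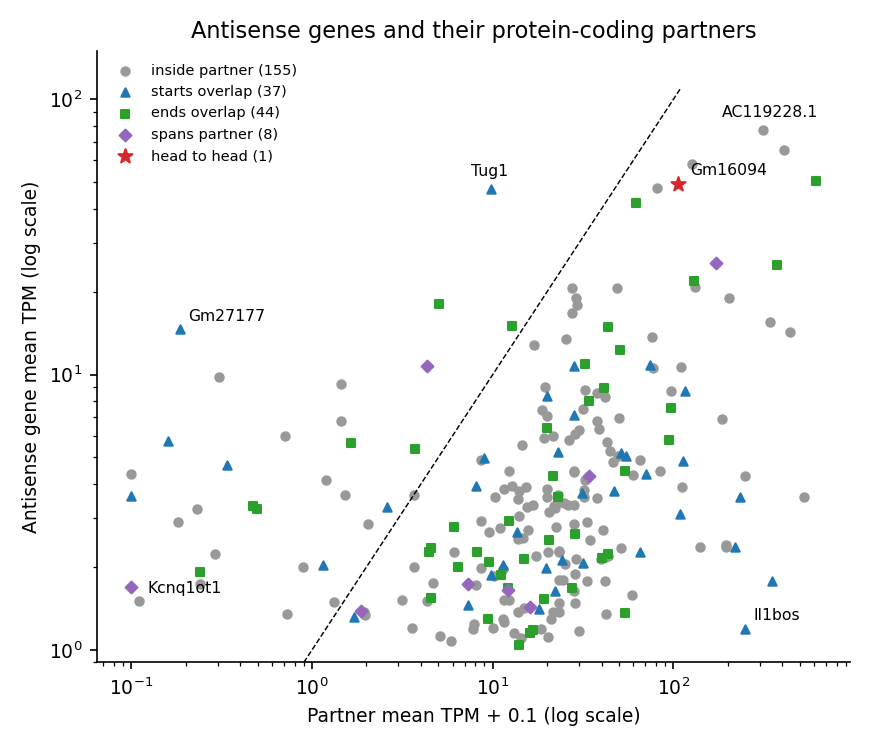
Mean TPM of each expressed antisense gene (y axis) against the mean TPM of its protein-coding partner plus 0.1 (x axis), both on log scales, for 245 pairs; symbols give the arrangement and the dashed line marks equal TPM. Most pairs lie to the right of the line, and Tug1 and Gm27177 lie to its left.

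Several loci carried more than 1 expressed antisense gene. Arhgap10, a GTPase-activating protein gene with 33.6 and 22.4 TPM, had 4, the highest number for a partner. Of these, 0610038B21Rik overlaps the start of Arhgap10 and had 11.5 and 10.01 TPM. Gm45406, 4933421D24Rik and Gm45285 lie inside it, wholly opposite its introns, and had 4.44 and 4.45, 3.70 and 2.02, and 4.42 and 2.31 TPM. The gene nearest the start of Arhgap10 was thus higher than the 3 inside it in both libraries. Lrmda had 3 antisense genes: Gm7480, 4930405A10Rik (18.6 and 14.9 TPM) and Gm10248 (1.81 and 1.55 TPM). Uvrag, Cdk6, Zbtb20 and Sp140 were among those with 2. Along the chromosomes, 13 pairs of adjacent members lay within 50 kb of each other.

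Genes of the macrophage response and of macrophage identity were among the partners. The 8 lists, with 210 such genes in all and chosen with earlier results of these data known, hold 15 genes with an annotated antisense gene that met the annotation and length criteria, and 10 of these antisense genes were expressed. Where the list gene was at 10 TPM or more, 9 of 11 were expressed (81.8%), against 164 of 428 (38.3%) over all antisense genes with such a partner. These shares were not matched for partner level beyond that floor. Over all antisense genes the share was 55.1% at partner levels of 100 TPM or more, and Cd274, Ikbke and Il1b were above 100 TPM. Whether list genes differ from other partners of equal level was not tested. The chemokine list, with 20 genes, had 0 antisense genes of this kind. AC119228.1 at Cd274 and Gm15655 at Maf are the highest of the 10.

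Gm28914 (chromosome 1, 131259507 to 131260553) had 17.4 and 13.6 TPM inside Ikbke, the gene of an inducible IkB kinase, which had 411 and 272 TPM. Gm45479 had 6.52 and 5.01 TPM inside Irf2, a gene of an interferon regulatory factor, with 36.2 and 16.6 TPM. Gm47009 had 4.39 and 2.91 TPM inside Irak3, whose product restrains Toll-like receptor signalling, with 25.9 and 19.9 TPM. All 3 antisense genes and their partners were higher in replicate 1 on the TPM scale. In normalised counts the antisense genes differed by log2 ratios of only 0.05, 0.03 and -0.20.

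Junos (chromosome 4, 95051534 to 95167318), which starts 688 bases from the immediate early gene Jun and covers the Jun promoter printed above, had 2.67 and 1.85 TPM, 2.26 ± 0.58 TPM (SD, n = 2). Jun had 96.2 and 35.0 TPM. In normalised counts Jun was lower in replicate 2 by a log2 ratio of -1.03, while Junos had -0.13 on 32.9 and 20.1 counts. The neighbouring starts were thus followed by levels that differ widely. Whether the pair moved by different amounts between the libraries was not tested, and Junos has few counts. Of the 8 transcripts annotated for Junos, 1, Junos-207, took 56.9% and 67.2% of its TPM.

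Il1bos (chromosome 2, 129369897 to 129375748), at the start of Il1b, had 1.06 and 1.33 TPM on 43 and 49 counts. Il1b, which encodes the cytokine interleukin 1 beta, had 242 and 256 TPM, so its antisense gene was the lowest of the 10 relative to its partner, with a log2 ratio of -7.59. Gm26626, inside Runx1, a gene of a haematopoietic transcription factor, had 2.39 and 1.17 TPM. Gm15283, which spans Hif1a, the gene of the hypoxia-inducible factor, had 1.10 and 1.76 TPM, and Gm48780, inside the arginase gene Arg2, 1.06 and 1.63 TPM. Arg2 was at 0.53 and 0.73 TPM, which makes Gm48780 the one gene of the 10 that was above its partner in both libraries with the first quantifier. The second quantifier gave Gm48780 a mean of 0.610 TPM, below the level of 1 TPM. Each of these 4 antisense genes has fewer than 50 counts in at least 1 library.

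The 5 antisense genes of list partners that were below the level were Gm11175 at Jund (0.33 TPM and listed at 0), Gm12223 at Csf2 (listed at 0 in both libraries), Gm15346 at Ikbkb (0.71 and 0.49 TPM), Gm16894 at Il1r2 (0.30 TPM and listed at 0) and Gm45091 at Cebpa (listed at 0 in both). Jund and Ikbkb themselves were above 10 TPM. Expression of the partner was therefore not always accompanied by an antisense gene at the level.

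**Figure D5:**
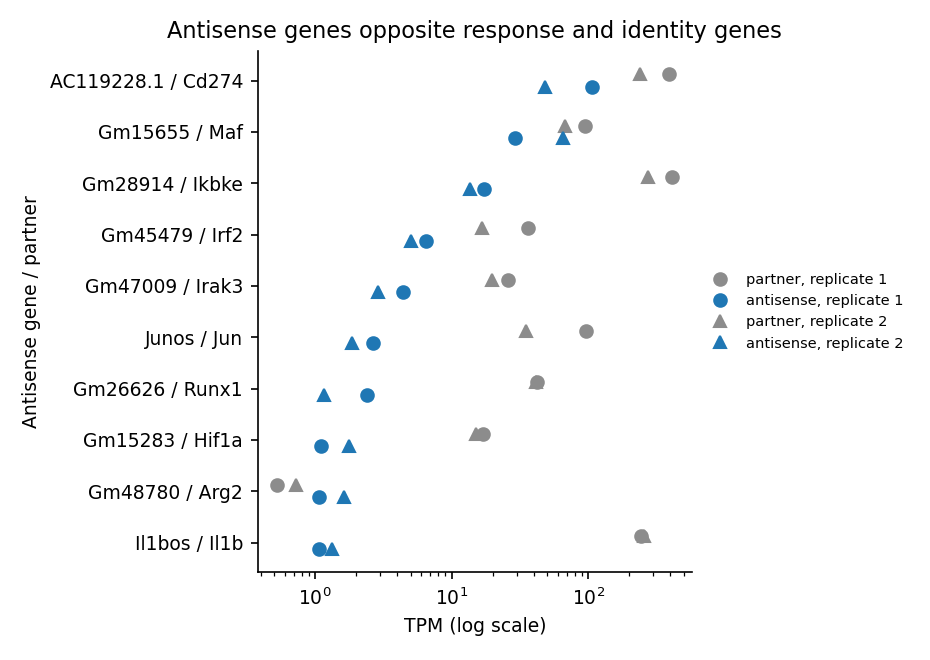
TPM (x axis, log scale) of the 10 expressed antisense genes whose partner is on a response or identity list (blue) and of that partner (grey), in replicate 1 (circles) and replicate 2 (triangles). Values are from the first quantifier. The partner lies to the right of the antisense gene in each pair but Gm48780 and Arg2, and the widest gap is that of Il1bos and Il1b.

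A hand-made list of antisense RNAs, chosen beside the members and holding few of the names above, had 3 members among the 254. Over all antisense genes that met the annotation and length criteria, 9.93% reached the level. With so few names on the list, the count is a description. Names on it that match no gene row, such as Gas8os, were not examined. Airn (chromosome 17, 12741311 to 12860136) had 5.16 and 5.34 TPM, 5.25 ± 0.13 TPM (SD, n = 2), and 10.3 and 16.3 TPM with the second quantifier, so the small SD does not cover the spread between tools. Igf2r, the gene it silences in cis, had 27.6 and 17.9 TPM. Kcnq1ot1 (chromosome 7, 143203458 to 143296549), a single exon, had 1.38 and 1.62 TPM, and Kcnq1 was at 0 and 0.02 TPM. Because it is so long, its low TPM rests on 3363 and 3553 expected counts, far above the members' median. The third was Il1bos. On the same list, Dnm3os, Emx2os, Evx1os, Hotairm1, Mettl5os, Nespas, Tsix and Wt1os were below 1 TPM in both libraries. Other names on it are not antisense-only genes in the annotation. Of these, Lncpint (149 and 88.9 TPM), Zeb2os, Jpx, Ftx and Ptgs2os2 were at 1 TPM or more in both libraries. Bvht, Halr1, Hoxa11os, Ptgs2os and Six3os1 were below it. The imprinted RNAs Airn and Kcnq1ot1 thus stood apart in their partners, one of which was expressed and the other near 0.

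Transcript usage was simple for most members. A single transcript is annotated for 165 of them, and the other 89 have several, up to 20 for Gm26885, which overlaps the start of the kinase gene Pim1. In 79 of these 89 the same transcript led in both libraries, and in 74 it took more than 50% of the gene's TPM in both. In 61 the leading transcript was the same in both libraries and with both quantifiers. Tug1 was an exception, with 8 transcripts of which Tug1-205 led in replicate 1 (36.4%) and Tug1-201 in replicate 2 (28.5%). For Airn the leading transcript, Airn-201, took 40.7% and 39.3%.

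The second quantifier, which assigns the same reads in another way, put 206 of the 254 genes (81.1%) at 1 TPM or more in both libraries, against 86.2% of 10210 genes of all kinds. The members' levels were within 2-fold of the first in 182, and the median log2 ratio, second over first, was -0.53. Gm17139 fell from 18.1 and 8.78 TPM to 0.568 and 0.895, Gm44709 from 17.1 and 8.62 TPM to 2.53 and 0.727, and Gm15512 from 12.1 and 9.75 TPM to 2.55 and 4.31. These 3 lie opposite Arel1, Supt5 and Arhgap22 and have 63.3% or more of their exon bases opposite exons. Gm37787, with 72.3%, was within 2-fold between the tools. In the other direction Gm49226, opposite introns of the amyloid precursor gene App, had 1.18 and 3.55 TPM with the first quantifier and 12.9 and 28.7 TPM with the second. Gm45267 (inside Rab11fip1) and Gm48754 (inside Rala) were also higher with the second, at 6.29 and 14.0, and 7.14 and 13.8 TPM. Levels of these 6 genes should be read with this spread between tools.

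Genes of the machinery that limits antisense RNA were expressed in the same nuclei, from lists chosen beside the members. Of 20 genes of the RNA exosome and its cofactors, 17 were at 1 TPM or more in both libraries (all protein-coding genes: 39.9%). The other 3 were the core subunit genes Exosc2 (1.47 and 0.88 TPM), Exosc4 (1.39 and 0.55 TPM) and Exosc6 (listed at 0 in both). Rbm7, a subunit of the complex that brings nuclear RNA to the exosome, had 75.9 and 50.6 TPM, and Zfc3h1, of a related complex for polyadenylated RNA, 20.1 and 26.2 TPM. All 13 genes of early termination and cap-bound complexes were at 1 TPM or more, with the termination factor gene Pcf11 at 63.5 and 44.6 TPM and Srrt, which encodes the cap-associated protein ARS2, at 37.9 and 33.0 TPM. Among 11 genes of enzymes and sensors of double-stranded RNA, 10 were at 1 TPM or more. The editing enzyme gene Adar had 103 and 54.0 TPM and Ifih1, the gene of the sensor MDA5, 171 and 147 TPM, whereas Adarb1 had 0.05 and 0.01 TPM. These levels do not measure the activity of the complexes.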

How the data were processed

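The data are 2 total RNA libraries of 1 group. Per the readme files deposited with the tables, the authors used mm10 and GENCODE M21 and made RSEM-format tables of genes and transcripts from transcriptome alignments, and a kallisto-format table of transcripts (the second quantifier) from reads. Aligner, tool versions and strand setting: not given in the sources used here. The authors' expected counts split each ambiguous read over the transcripts it fits, so overlapping and multi-copy genes can exchange counts. The deposited TPM divides these by effective length and scales to a fixed total, so it depends on all other RNAs of the library. The isoform percent column of the deposited transcript tables was not needed, and shares of transcripts were computed from TPM. TPM interval bounds in the file headers have no stated level, and signal tracks were not used here. Rows that name no gene were left out (1.19% of the counts of replicate 1, 0.215% of those of replicate 2).

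The members and all gene lists were chosen with earlier results of these data known. A partner is the opposite-strand protein-coding gene with the most overlapping bases, or else the one whose start is nearest head to head within 1 kb. Expected counts were rounded and scaled by TMM (edgeR 4.0.16, R 4.3.3), with 0.5 counts added for log2 ratios and a minimum mean of 10 counts. Other steps used Python 3.11.15, pandas 2.3.3, numpy 2.4.6 and matplotlib 3.10.9. With 1 group there is no contrast and no test was run. The comparison between replicates (TMM scaling and log2 ratios) was tested on simulated counts, and the other steps were not. Named genes are the 15 highest members, the 5 farthest apart between replicates in each direction (mean of 50 or more counts), members with a partner on a list or a known name, the 5 highest relative to their partner, the 3 nearest each side of the threshold and the 3 farthest apart between quantifiers in each direction. Alternatives were other floors, length minimums, pseudocounts, partner definitions and count minimums, DESeq2 1.42.0 size factors, the posterior mean TPM, the second quantifier and each library alone. SDs are over 2 libraries and are imprecise.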

Additional observations from a re-analysis of the deposited data

Results flagged for a closer look

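Some antisense genes outside the 254 were above the level, in data that the comparisons above do not use. Zeb2os, which lies opposite the transcription factor gene Zeb2 and also has transcripts of other biotypes, had a mean of 62.1 TPM (62.6 and 61.6 TPM). The X-linked F630028O10Rik had a mean of 32.0 TPM on 2537 and 1879 expected counts. Gm26716 had a mean of 195 TPM, Gm28913 77.0 TPM, Gm37401 47.8 TPM, Gm17122 20.4 TPM and Gm16161 13.5 TPM. These 5 have effective lengths below 200 bases in at least 1 library, where TPM is unstable. In all, 25 genes with only antisense transcripts reached 1 TPM in both libraries and were left out, 22 of them for their effective length and the other 3 because they lie on the X chromosome.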

How the results depend on the processing

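No paired analysis was possible because both libraries belong to the same group. The number of expressed antisense genes was 402 with a floor of 0.5 TPM, 145 with 2 TPM and 385 with the second quantifier, and 282 to 368 with a library left out. The members' median TPM was 2.42 with the second quantifier, 13.8 after rescaling TPM over nuclear protein-coding genes, 1.79 and 5.18 with floors of 0.5 and 2 TPM, and 2.76 to 3.55 with a library left out. The number over 2-fold apart was 44 with the second quantifier and 15 with a minimum mean of 50 counts. The median log2 ratio between replicates was -0.33 as a TPM ratio, the reverse of the 0.09 from normalised counts, and 0.51 with the second quantifier. Partners at a floor of 100 TPM numbered 22, and 166 to 188 partners reached 10 TPM with a library left out. Genes above their partner numbered 33 with either library left out. The median log2 ratio of antisense to partner was -2.04 with the second quantifier, -2.20 with a pseudocount of 1 TPM and -2.63 to -2.39 with a library left out. With the second quantifier 125 members reached 2 TPM. The cause of these shifts was not tested, other than that a floor sets the count by construction. Arrangement, exon overlap and transcript shares moved by less than 1.5 times. Of 47 named members, 32 were lower and 15 higher with the second quantifier. Among these 47, in either direction, 14 were within 1 SD of their value. Depth limits the members with few counts, the lowest at 7.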

Other observations

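Antisense genes at the level were spread over all 19 autosomes. Chromosome 12 had 18 of 92 antisense genes that met the annotation and length criteria, chromosome 16 had 14 of 86, and chromosome 19 had 3 of 81, one of which is AC119228.1 at Cd274. These counts were looked at after the values were seen and have no test. The deposited TPM intervals, whose level is not stated, did not overlap between the libraries for 89 of the 254 genes, against 47.3% of 10210 genes of all kinds at 1 TPM or more. Of the 89, 76 were higher in replicate 1 and 13 in replicate 2, on a scale that carries the shift between the libraries.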
